A study of Mus musculus with 12 samples.

Results

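Adenylyl cyclases make the second messenger cyclic AMP from ATP, mostly downstream of receptors coupled to stimulatory G proteins. Cyclic AMP acts through protein kinase A, through cyclic nucleotide gated channels and through the exchange factors Rapgef3 (EPAC1) and Rapgef4 (EPAC2), which load the small GTPases Rap1 and Rap2 with GTP. The members described here were the 10 genes Adcy1, Adcy2, Adcy3, Adcy5, Adcy6, Adcy7, Adcy8, Adcy9, Rapgef3 and Rapgef4, taken through every array probe that carries one of these names and is not a control. These were 12 of 55681 probes and 10 of 23886 named genes. The genes were selected on family membership after Adcy2 and Rapgef3 had been seen among the large differences between Tbx3-high and Tbx3-low mESC, with no threshold on the others. The family is not complete: the cyclase genes Adcy4 and Adcy10 were not members and are counted in a list of other cyclase genes and regulators below. Adcy5 had 3 probes and each other gene had 1. The transcript accession of all 12 probes named the same gene as the array design, and 0 other probes carried an accession of a member.

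Each of the 12 arrays carried RNA of 1 sample. The mouse embryonic stem cells (mESC) comprised 4 samples with the phenotype Tbx3-high and 4 with the phenotype Tbx3-low. The mouse induced pluripotent stem cells (iPSC) comprised 2 samples labelled Tbx3 null and 2 labelled Tbx3 wild type. Tbx3 encodes a T-box factor that binds DNA and is active in pluripotent cells. The sources used here do not give the strain, the culture conditions, the way in which high and low cells were separated or the lesion of the null allele. Nor do they tell separate cultures from repeat arrays of 1 culture, so each p-value reflects only the spread among the samples at hand, which may be technical.

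Levels are log2 signals relative to the 75th percentile of the same array, so a level of 0 lies at that percentile, and they are compared within a probe only. Replicate arrays of a group correlated at r = 0.988 to 0.995 over probes. The 75th percentile lay at an intensity of 314 to 458 on the mESC arrays and of 699.8 to 1007 on the iPSC arrays, and 0 spots were saturated. Between 55.9% and 64.8% of the spots of an mESC array exceeded background clearly, as did 62.4% and 63.0% on the null-labelled and 68.0% and 68.6% on the wild-type iPSC arrays. The mESC arrays lay on 1 slide and the iPSC arrays on another, so cell type and slide cannot be told apart and each comparison was made within its slide. On the slides, the compared groups also lay in different columns, and column and group cannot be told apart. All 10 of 10 mESC markers, among them Pou5f1, Sox2 and Nanog, were well above background on every array of each group.

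The Tbx3 probe averaged 7.07 ± 0.04 in Tbx3-high and 5.74 ± 0.02 in Tbx3-low mESC (SD, n = 4 each), a difference of 1.33 ± 0.08 (SE, limma, adjusted p = 7.25e-07). In iPSC the same probe averaged 5.50 ± 0.02 in the samples labelled null and 5.17 ± 0.25 in the wild type (SD, n = 2 each). It was therefore not lower under the null label. The difference was 0.32 ± 0.11 (limma adjusted p = 0.0482) and failed the threshold in 9 of 13 alternative analyses, where the adjusted p ran from 0.00489 to 0.42. Whether the probe lies in the part that the null allele lacks is not known here, so it does not check the label, and these samples are called null-labelled below.

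The probes behind the main differences are shown first, 5′ to 3′ in lower case, with mm9 positions from the array design. Only the first 30 bases are printed except for Adcy2, which is shown whole. Exon and UTR positions were not analysed here. The Rapgef3 probe lies at chr15:97575424-97575483 (minus strand), Adcy2 at chr13:68759669-68759728 (minus strand) and Adcy1 at chr11:7077699-7077755 (plus strand). The 3 Adcy5 probes start within a stretch of 570 bases, at chr16:35304398-35304457, chr16:35304041-35304100 and chr16:35304551-35304610 (plus strand), so they are not independent measures of the gene.
Rapgef3: tctccacacatctgagataaacagctgggt
Adcy2: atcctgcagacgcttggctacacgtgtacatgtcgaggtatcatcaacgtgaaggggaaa
Adcy1: gcactacggaattgcatgccttgaaattcc
Adcy5 probe 1: gcaagaggacaccaggcaaggagcagtggc
Adcy5 probe 2: atgtttccccttggcagaagactctgctag
Adcy5 probe 3: ggaggtgggaaccccaacttgtctttttgt
The longest run of bases that any 2 member probes share was 9 bases. The coordinates of the Adcy6 probe (chr15:98420404-98420418) cover 15 of its 60 bases, and those of the Rapgef4 probe (chr2:72080822-72091028) span 10207 bases.

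The exchange factor Rapgef3 separated the groups without overlap in both cell types. It was higher in Tbx3-high than in Tbx3-low mESC by 2.30 ± 0.08 on the log2 scale, 4.92-fold, and it was lower in null-labelled than in wild-type iPSC. Its level was 2.46, 2.52, 2.40 and 2.47 in the Tbx3-high samples, against 0.24, 0.11, -0.02 and 0.30 in the Tbx3-low samples. The group SD was 0.05 in Tbx3-high and 0.14 in Tbx3-low mESC, and the groups did not overlap. In iPSC it was -0.50 and -0.44 in the null-labelled samples, against 1.90 and 1.79 in the wild type. Both null-labelled samples lay below both wild-type samples. Rapgef3 fell by 2.32 ± 0.11 (SE, limma adjusted p = 3.28e-07) in null-labelled iPSC, 4.98-fold lower than in wild type. All 12 arrays had it well above background. In bulk RNA, fewer cells that express a gene and less of its RNA per cell cannot be told apart, here and in each result that follows.

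The mESC differences of the members are a description without a test, because results of that comparison were in view when the members were chosen. In the limma fit over all probes 4 of their 9 tested probes were called higher and 4 lower, and 25.9% of all probes tested were called (14.5% higher, 11.4% lower). These figures are given for completeness, and nothing is read from them. The iPSC comparison is between other samples, and its members were tested. Earlier results of these data were known when the members were chosen, so the iPSC p-values may not be free of that choice. These p-values also rest on the spread among the mESC arrays, because the arrays of both cell types entered the same fit. With the iPSC arrays alone, the limma adjusted p was larger for Rapgef3 (0.000826) and Adcy2 (0.0143) than in that fit. It was smaller for Adcy5 probe 2 (0.00477) and Adcy5 probe 3 (0.00308).

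Adcy2, a cyclase stimulated by G protein beta-gamma subunits together with the stimulatory alpha subunit, had the signs of Rapgef3, higher in Tbx3-high mESC and lower in null-labelled iPSC. Its level was -2.27, -2.08, -2.03 and -2.19 in the Tbx3-high samples, against -5.06, -5.42, -5.62 and -5.32 in the Tbx3-low samples. The probe was well above background in all 4 Tbx3-high samples and in 0 of 4 Tbx3-low samples. The difference of 3.22 ± 0.17 is therefore given as a bound, at least 6.87-fold higher in Tbx3-high mESC. That bound holds for the reported processing only. The log2 difference was 1.04 after normexp background correction and 1.4 in the deposited series table. The probe entered the comparison through the group in which it was high. In iPSC it was well above background on all arrays, at -5.07 and -4.46 in the null-labelled samples, against -3.28 and -2.74 in the wild type. The groups did not overlap. Adcy2 fell by 1.76 ± 0.24 (SE, limma adjusted p = 0.000415), 3.38-fold lower in null-labelled iPSC.

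Adcy1, a cyclase stimulated by calcium and calmodulin and best known from neurons, was higher in Tbx3-high mESC and also higher in null-labelled iPSC. Its level was -3.29, -3.67, -3.53 and -3.71 in the Tbx3-high samples, against -4.38, -4.85, -4.91 and -4.66 in the Tbx3-low samples, of which the third was not well above background. The groups did not overlap, and the difference was 1.15 ± 0.17, 2.22-fold. In iPSC the level was -4.51 and -4.86 in the null-labelled samples, against -8.04 and -7.37 in the wild type. Neither wild-type array had the probe well above background. Adcy1 was at least 2.15-fold higher in null-labelled iPSC (log2 difference 3.02 ± 0.25, limma adjusted p = 1.32e-05), but it entered this comparison only through the null-labelled group, in which it was high, so this p does not support the difference by itself.

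**Figure D1:**
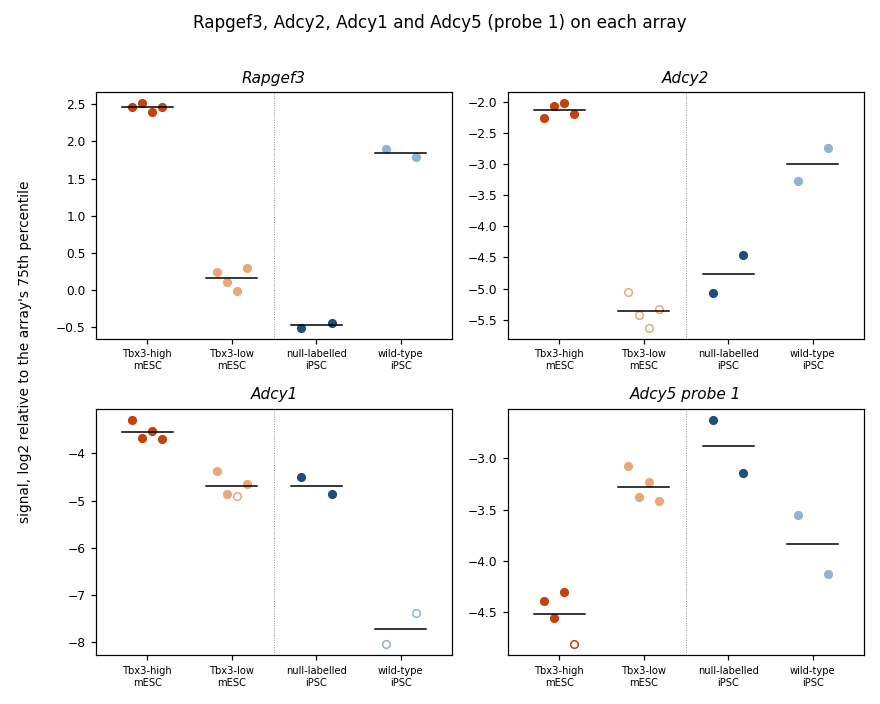
Signal of Rapgef3, Adcy2, Adcy1 and Adcy5 (probe 1) on each of the 12 arrays (y axis, log2 relative to the array's 75th percentile, not starting at 0), by group on the x axis, with a line at each group mean. Open points are spots not well above background. Rapgef3 and Adcy2 are higher in Tbx3-high than in Tbx3-low mESC and lower in null-labelled than in wild-type iPSC, Adcy5 the other way round, and Adcy1 is higher in Tbx3-high mESC and in null-labelled iPSC.

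Adcy5 and Adcy6 form a pair of cyclases that calcium and inhibitory G proteins restrain. Adcy5 was lower in Tbx3-high mESC and higher in null-labelled iPSC. Its probe 1 was at -4.39, -4.56, -4.30 and -4.81 in the Tbx3-high samples, the last not well above background, against -3.08, -3.38, -3.24 and -3.41 in the Tbx3-low samples. The groups did not overlap, and the difference was -1.24 ± 0.16. Probe 2 was at -5.38, -5.07, -6.69 and -5.56 in the Tbx3-high samples, none of them well above background, against -4.45, -3.71, -3.99 and -3.75 in the Tbx3-low samples. It was at least 1.95-fold lower in Tbx3-high mESC (log2 difference -1.70 ± 0.30) and entered through the Tbx3-low group. Probe 3 was not well above background on any of the 8 mESC arrays and was not tested there.

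In iPSC all 3 Adcy5 probes were higher under the null label. Probe 1 was at -2.62 and -3.14 in the null-labelled samples, against -3.55 and -4.13 in the wild type. Adcy5 rose by 0.96 ± 0.24 at this probe (SE, limma adjusted p = 0.0136). Probe 2 was at -3.45 and -3.85, against -5.25 and -5.43 in the wild type, and rose by 1.69 ± 0.45 (limma adjusted p = 0.0171). In neither probe did the groups overlap, but both lost the call in 3 of 13 alternatives. Without null-labelled replicate 1 the adjusted p was 0.112 for probe 1 and 0.104 for probe 2. Without wild-type replicate 2 it was 0.108 for probe 1 and 0.0816 for probe 2. The iPSC arrays fitted alone gave 0.0656 for probe 1, and probe 2 had 0.0637 without wild-type replicate 1. Probe 3 was at -5.12 and -4.82 in the null-labelled samples, against -7.80 and -7.23 in the wild type, where it was not well above background. It was at least 1.77-fold higher in null-labelled iPSC (limma adjusted p = 0.005), and it too entered only through the group in which it was high.

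Adcy6 was at -2.55, -2.47, -3.14 and -2.93 in the Tbx3-high samples, against -2.14, -2.46, -1.98 and -2.21 in the Tbx3-low samples. The gap between the groups was small, from -2.47 to -2.46, and the difference was -0.58 ± 0.15. It came to -0.22 within row 1 of the slide and to -0.94 within row 2. In iPSC Adcy6 was at -2.20 and -2.01 in the null-labelled samples, against -2.68 and -2.65 in the wild type. The groups did not overlap, but the difference of 0.56 ± 0.22 did not pass (limma adjusted p = 0.0896). It passed in 4 of 13 alternatives, with adjusted p = 0.00459 after normexp background correction, 0.0435 after quantile normalization, 0.00397 in the deposited series table and 0.0447 for the iPSC arrays alone.

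Adcy7, another cyclase that beta-gamma subunits stimulate and known from blood cells, was at -2.92, -2.98, -2.96 and -2.86 in the Tbx3-high samples, against -2.22, -1.82, -1.85 and -1.67 in the Tbx3-low samples. All Tbx3-high values lay below all Tbx3-low values, by 1.04 ± 0.13 between the means. In iPSC Adcy7 was at -4.55 and -4.17 in the null-labelled samples, against -3.71 and -4.01 in the wild type. The difference of -0.50 ± 0.18 did not pass (limma adjusted p = 0.0703), although the groups did not overlap. Leaving out null-labelled replicate 2 brought the adjusted p to 0.0447.

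Adcy9, a widely expressed cyclase that forskolin stimulates poorly, ranged from -0.15 to 0.02 in the Tbx3-high samples and from -0.62 to -0.60 in the Tbx3-low samples. The groups did not overlap and the difference was 0.57 ± 0.07, 1.48-fold. In iPSC it was at 0.37 and 0.28 in the null-labelled samples, against 0.27 and 0.02 in the wild type, and the difference of 0.18 ± 0.10 did not pass (limma adjusted p = 0.219).

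Adcy3, the cyclase of olfactory neurons and primary cilia, was the tested member with the smallest difference in both cell types. It was at -1.82, -1.73, -1.39 and -1.62 in the Tbx3-high samples, against -1.53, -1.51, -1.66 and -1.63 in the Tbx3-low samples. These groups overlapped, with a difference of -0.06 ± 0.12. In iPSC it was at -3.42 and -3.22 in the null-labelled samples, against -3.20 and -3.63 in the wild type, with a difference of 0.10 ± 0.17 (limma adjusted p = 0.732).

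Adcy8, the other cyclase stimulated by calcium and calmodulin, was well above background on 1 of 12 arrays, that of Tbx3-high replicate 1, and was tested in neither comparison. Its values ran from -6.78 to -5.08 in Tbx3-high and from -6.83 to -5.88 in Tbx3-low mESC. They were -7.02 and -7.57 in the null-labelled and -7.32 and -6.90 in the wild-type iPSC. Rapgef4, the second exchange factor, was not well above background on any array and was not tested. Its values ran from -7.37 to -6.89 in Tbx3-high and from -7.28 to -6.74 in Tbx3-low mESC, and were -7.76 and -7.51 in the null-labelled and -8.12 and -8.05 in the wild-type iPSC. Both groups are thus bounded by background for Rapgef4 in each comparison and for Adcy8 in iPSC. In mESC only 1 array had Adcy8 well above background, and no fold is given for either gene.

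**Figure D2:**
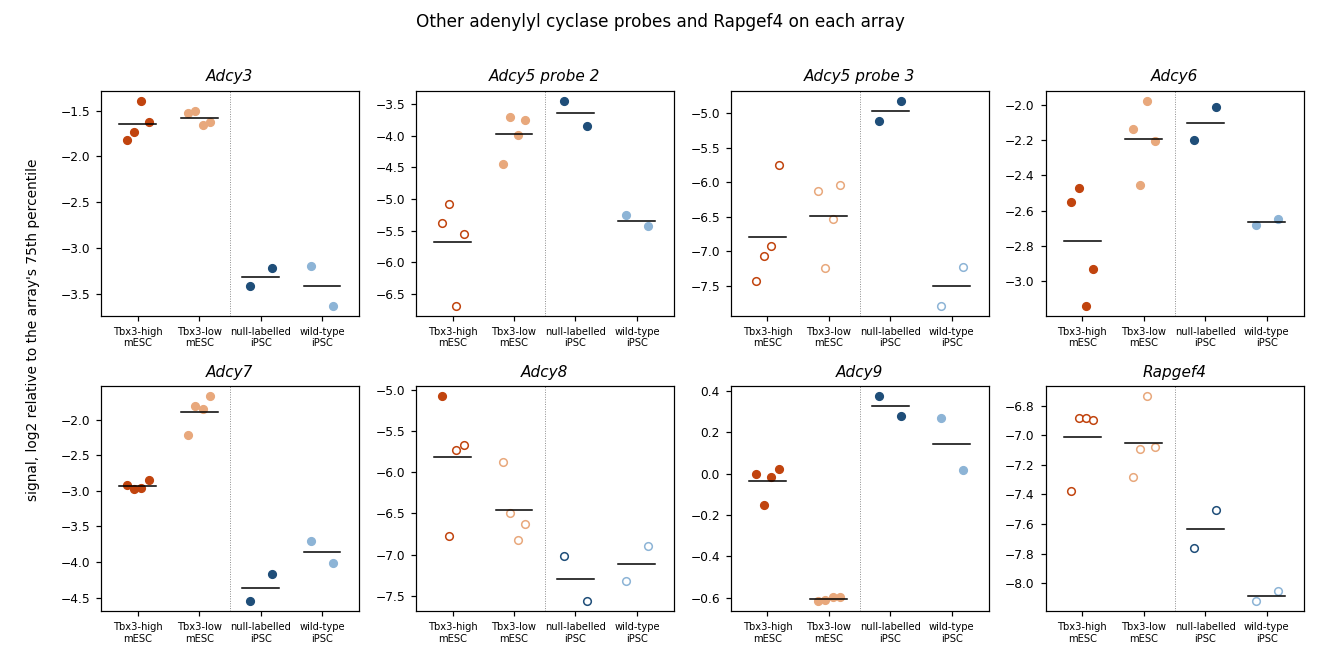
Signal of the other 8 member probes on each of the 12 arrays (y axis, log2 relative to the array's 75th percentile, with a scale of its own in each panel and not starting at 0), by group on the x axis, with a line at each group mean. Open points are spots not well above background. Adcy7 and Adcy9 separate the mESC groups, Adcy3 overlaps in both cell types, and Rapgef4 is open on every array.

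Read across all members, 10 of the 12 probes were tested in iPSC, where 4 were called higher and 2 lower. Of these 6 probes, 4 were not dim in either group, namely Rapgef3, Adcy2 and Adcy5 probes 1 and 2. Adcy1 and Adcy5 probe 3 had entered only through the null-labelled group, in which they were high. The same rule called 28.3% of all probes tested in iPSC, 15.5% higher and 12.9% lower. The groups did not overlap in 9 of the 10 probes, where 66.4% of all probes did not overlap with 2 samples against 2. The median difference of the 10 was 0.37, against 0.05 over all probes tested. In mESC, 8 of the 9 tested probes had groups that did not overlap (29.2% of all probes), with a median difference of -0.06, against 0.04 over all probes. Probes dim in 1 group entered only through the other, so these counts and medians do not describe all members and support nothing about them.

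Set side by side, 9 probes were tested in both comparisons. Rapgef3 and Adcy2 were higher in Tbx3-high mESC and lower in null-labelled iPSC. Adcy3, Adcy6 and both Adcy5 probes had the opposite pair of signs, 4 probes, of which Adcy3 and Adcy6 did not pass in iPSC. Adcy1 and Adcy9 were higher in both, Adcy9 without passing in iPSC. Adcy7 was lower in both, without passing in iPSC. The difference between the 2 comparisons itself was not tested.

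**Figure D3:**
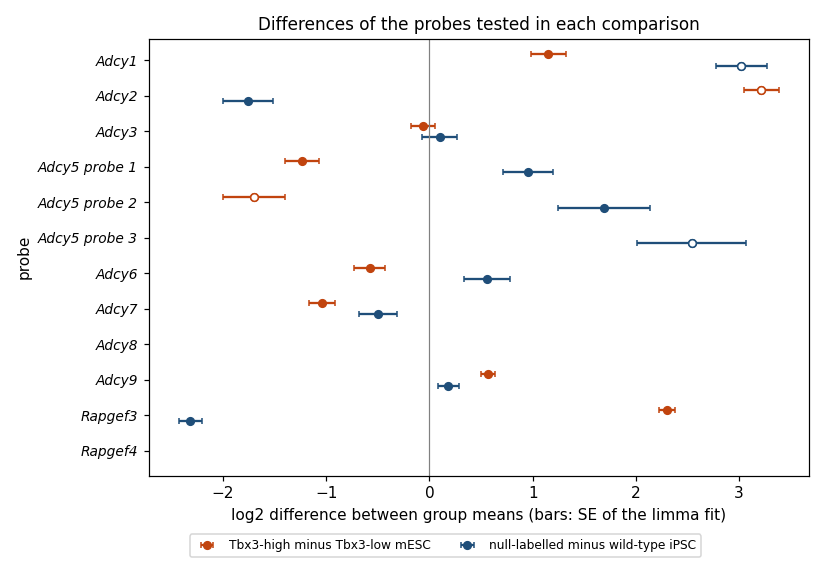
Log2 difference between group means (x axis) for each member probe (y axis) in both comparisons, with the SE of the limma fit as bars. Open points have a group that was not well above background on any array, where the fold is only a bound. Rapgef3 and Adcy2 lie right of 0 for mESC and left of 0 for iPSC, Adcy5 probes 1 and 2 the other way round, and untested probes have no point. Adcy5 probe 3 was tested in iPSC only and lies right of 0 there.

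The size of several differences depended on how background was treated, and no member probe called in either comparison changed sign under the alternatives run. After normexp background correction the mESC difference of Adcy2 was 1.04, that of Adcy1 was 0.33 and those of Adcy5 probes 1 and 2 were -0.34 and -0.24. Rapgef3 kept 2.12. In iPSC normexp gave -0.71 for Adcy2 and 0.72 for Adcy1 and the deposited series table gave 0.40 for Adcy1, while Rapgef3 lay between -2.37 and -2.16 over all 13 alternatives. For Adcy5 probe 3 the deposited table gave 0.54 in iPSC. The folds given as bounds for Adcy2, Adcy1 and Adcy5 probes 2 and 3 are larger than some of these differences. They hold for the reported processing only. The iPSC calls of Rapgef3 and Adcy2 held in each of the 13.

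Markers of other cell types moved with some groups. The summed linear signal of 11 primitive endoderm markers, in multiples of the 75th percentile, was 43.8 to 56.5 in Tbx3-high and 41.1 to 46.2 in Tbx3-low mESC, with 6 markers called higher and 1 lower. It was 8.38 to 8.75 in null-labelled and 16.4 to 17.6 in wild-type iPSC, with 7 called lower and 0 higher. Of these markers, 2 were dim in null-labelled iPSC and 0 in the other groups. The sum of 9 neuron markers was 32.5 to 33.9 in Tbx3-high and 23.6 to 26.6 in Tbx3-low mESC, and 34.7 to 39 in null-labelled and 38.6 to 40.5 in wild-type iPSC, with 2 dim in each group. The calls did not follow the sums. In Tbx3-high mESC 1 of the 7 tested neuron markers was higher (Stmn2, by 0.72 ± 0.08) and 2 were lower, with a median of -0.24. In null-labelled iPSC 3 of 7 were higher, among them Tubb3 by 1.55 ± 0.12, and 1 was lower, with a median of 0.59. The sum of 11 fibroblast markers was 4.87 to 29.6 in Tbx3-high and 6.47 to 7.62 in Tbx3-low mESC, and 4.96 to 5.65 in null-labelled and 5.02 to 5.29 in wild-type iPSC. In Tbx3-high mESC 3 of the 8 tested fibroblast markers were higher and 1 lower, with a median of 0.60, and in null-labelled iPSC 3 of 10 were higher and 3 lower, with a median of -0.17. Col1a1 and Pdgfrb are given because they had the signs of Rapgef3 and Adcy2, and they do not stand for the list. The 1 fibroblast marker called lower in Tbx3-high mESC and the 3 called higher in null-labelled iPSC went the other way. Col1a1 averaged -0.70 in Tbx3-high and -2.23 in Tbx3-low mESC, and -2.24 in null-labelled and 0.08 in wild-type iPSC. Pdgfrb averaged -1.17 in Tbx3-high and -3.00 in Tbx3-low mESC, and -3.05 in null-labelled and -0.83 in wild-type iPSC. The highest sum belongs to Tbx3-high replicate 2, in which Thy1 was at 4.73, against 0.74 to 0.96 in the other Tbx3-high samples. On that array Adcy2 and Adcy1 lay between the other Tbx3-high values and Rapgef3 was the highest of the 4. Without it, the mESC differences were 2.28 for Rapgef3, 3.19 for Adcy2 and 1.19 for Adcy1. The part of these cell types in the results was not tested.

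The promoters of the members were read from RefSeq (GRCm38.p6) as the 250 bases before each transcription start. Of the 10 genes 8 had an entry, with 11 windows in all. Shown are the windows of Rapgef3 and Adcy2, which were higher in Tbx3-high mESC and lower in null-labelled iPSC, and of Adcy5, which had the opposite signs. The letters searched, on both strands, were the cyclic AMP response element TGACGTCA, its half-site TGACG, the T-box motif AGGTGTGA and its core GGTGTGA. The half-site is contained in the full element and the core in the T-box motif. Matches are in capitals.
Rapgef3, chr15:97767667-97767916, minus strand: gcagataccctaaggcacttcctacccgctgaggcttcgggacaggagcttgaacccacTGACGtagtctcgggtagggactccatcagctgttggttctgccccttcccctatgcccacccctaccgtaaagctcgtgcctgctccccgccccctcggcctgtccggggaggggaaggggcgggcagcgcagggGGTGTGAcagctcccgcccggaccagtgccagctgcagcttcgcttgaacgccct
Adcy2, chr13:68999542-68999791, minus strand: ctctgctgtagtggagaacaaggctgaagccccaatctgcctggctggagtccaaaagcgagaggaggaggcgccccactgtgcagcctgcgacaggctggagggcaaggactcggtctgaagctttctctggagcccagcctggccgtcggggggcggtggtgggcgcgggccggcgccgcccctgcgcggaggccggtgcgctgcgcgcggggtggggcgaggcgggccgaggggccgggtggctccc
Adcy5, chr16:35154614-35154863, plus strand: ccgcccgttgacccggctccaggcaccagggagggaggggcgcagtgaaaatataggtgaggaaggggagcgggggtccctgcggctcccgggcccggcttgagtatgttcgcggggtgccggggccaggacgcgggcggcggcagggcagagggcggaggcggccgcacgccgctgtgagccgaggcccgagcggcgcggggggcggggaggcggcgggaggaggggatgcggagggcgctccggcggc
The Rapgef3 window holds 1 half-site, whose first base lies at -191 from the start, and 1 T-box core at -55. The Adcy2 and Adcy5 windows hold none of the 4 motifs. Among the other members, 1 of the 3 Adcy7 windows and the Adcy9 window hold 1 half-site each. Neither full motif is in any member window. Of 32851 windows of the same length over all genes, 17.8% hold the half-site, 3.33% the T-box core, 1.55% the full element and 1.12% the T-box motif. The GC content was 66.0% for Rapgef3, 73.2% for Adcy2 and 78.0% for Adcy5, against a median of 52.4% over all windows.

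The genes around the members were followed through 12 lists of the cyclic AMP and Rap pathway with 131 genes, of which 130 were on the array. In Tbx3-high mESC 23 of the 104 tested genes were higher and 13 lower, 34.6% in all, where 31.1% of all genes were called (17.2% higher, 13.9% lower). In null-labelled iPSC 16 of 111 were higher and 23 lower, 35.1% in all, where 34.7% of all genes were called (19.4% higher, 15.3% lower). The median difference of the tested list genes was 0.07 in mESC and 0.01 in iPSC. The pathway as a whole was thus called at about the rate of all genes. Several of the list counts that follow rest on single arrays, and for these the counts with an array left out stand beside them. Other alternatives moved some counts further. Over the 20 mESC alternatives the calls ran from 0 to 5 for the receptors, 1 to 4 for the protein kinase A subunits and 1 to 3 for the anchoring proteins.

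Among receptors that act on cyclic AMP, 2 of 13 tested genes were higher and 2 lower in Tbx3-high mESC, and 3 of 14 were higher and 3 lower in null-labelled iPSC. The 4 mESC calls were 2 without Tbx3-high replicate 1 or 2 or without Tbx3-low replicate 1 or 4, and the 6 iPSC calls were 3 without wild-type replicate 2. Lpar1, a receptor for lysophosphatidic acid that couples to inhibitory and other G proteins, rose by 0.77 ± 0.14 in Tbx3-high mESC (SE, limma adjusted p = 0.00187) and averaged -3.53 ± 0.47 in null-labelled and -2.03 ± 0.22 in wild-type iPSC (SD, n = 2 each, limma adjusted p = 0.000344). In mESC the adjusted p of Lpar1 ran up to 0.0636 over 20 alternatives. After normexp correction the Lpar1 difference was 0.40 in mESC and -0.90 in iPSC. Of the heterotrimeric G protein genes and their regulators, 3 of 15 were higher and 2 lower in Tbx3-high mESC, and 3 of 15 were higher and 1 lower in null-labelled iPSC. The 5 mESC calls were 3 without Tbx3-high replicate 3 or without Tbx3-low replicate 2, and the 4 iPSC calls were 1 without null-labelled replicate 1 or without wild-type replicate 2. Gnal, the stimulatory alpha subunit of olfactory neurons, fell in both, by 0.57 ± 0.11 in Tbx3-high mESC (adjusted p = 0.00277) and by 0.93 ± 0.16 in null-labelled iPSC (adjusted p = 0.00147).

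Among the other cyclase genes and regulators, 1 of 5 was higher in Tbx3-high mESC and 2 of 6 were lower in null-labelled iPSC. Adcy4, a cyclase related to Adcy2 and Adcy7, rose by 0.86 ± 0.15 in Tbx3-high mESC (limma adjusted p = 0.00156). After normexp correction its difference was 0.22 and did not pass (adjusted p = 0.106). Cap2, a cyclase-associated protein that binds actin, was at least 4.75-fold lower in null-labelled iPSC (limma adjusted p = 1.8e-05), where it was not well above background. It entered this comparison only through the wild-type group, in which it was high, so this p does not support the difference by itself. Over 13 alternatives the log2 difference of Cap2 ran from -3.99 to -0.96, so the bound holds for the reported processing only. Cap1, a relative of Cap2, fell by 0.68 ± 0.14 (limma adjusted p = 0.00467).

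Phosphodiesterases, which break cyclic AMP down, had 2 of 12 tested genes higher and 2 lower in Tbx3-high mESC, and 2 of 14 higher and 4 lower in null-labelled iPSC. The 6 iPSC calls were 3 without null-labelled replicate 2 or without wild-type replicate 1. Pde2a was at 0.09, 0.11, 0.26 and 0.01 in the Tbx3-high samples, against 1.23, 1.05, 1.20 and 1.24 in the Tbx3-low samples. It fell by 1.06 ± 0.08 (SE, limma adjusted p = 4.42e-06). Pde2a was at 0.53 and 0.63 in the null-labelled samples, against 0.02 and -0.18 in the wild type, and rose by 0.66 ± 0.11 (adjusted p = 0.00168). Neither pair of groups overlapped. Pde8a rose by 1.03 ± 0.11 (adjusted p = 5.89e-05) and Pde4d by 0.86 ± 0.10 (adjusted p = 0.000116) in Tbx3-high mESC, while Pde1b, which calcium and calmodulin activate, fell by 0.73 ± 0.09 (adjusted p = 0.000126). In null-labelled iPSC Pde10a fell by 1.88 ± 0.25 (adjusted p = 0.000342), and its difference was -0.81 after normexp correction.

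Protein kinase A subunits had 2 of 7 genes higher and 2 lower in Tbx3-high mESC, and 3 of 7 higher in null-labelled iPSC, which was 1 without null-labelled replicate 1 or without wild-type replicate 2. Prkar2b, a regulatory subunit, was at -0.50, -0.48, -0.35 and -0.34 in the Tbx3-high samples, against 0.51, 0.58, 0.75 and 0.70 in the Tbx3-low samples. It fell by 1.05 ± 0.08 (limma adjusted p = 7.85e-06), without overlap. It was at -0.28 and -0.50 in the null-labelled samples, against -0.82 and -1.01 in the wild type, and rose by 0.53 ± 0.12 (adjusted p = 0.00895), a call lost in 3 of 13 alternatives, where the adjusted p ran up to 0.075. The catalytic kinase Prkx rose by 0.50 ± 0.08 in null-labelled iPSC (adjusted p = 0.00116). Of the kinase inhibitors, 1 of 2 was higher in Tbx3-high mESC and 0 of 3 were called in null-labelled iPSC. Without Tbx3-low replicate 2 none of the inhibitors was called in mESC, and without null-labelled replicate 1 there was 1 call in iPSC. Anchoring proteins, which hold the kinase at set places in the cell, had 3 of 9 higher in Tbx3-high mESC and 3 of 9 lower in null-labelled iPSC. The iPSC calls were 1 without null-labelled replicate 2 or without wild-type replicate 1, and ran from 1 to 5 over the 13 alternatives. Akap5 was at -1.57, -1.35, -1.39 and -1.51 in the Tbx3-high samples, against -1.99, -1.95, -1.97 and -1.89 in the Tbx3-low samples, and rose by 0.50 ± 0.07 (adjusted p = 0.000363). It was at -2.78 and -2.86 in the null-labelled samples, against -1.66 and -1.78 in the wild type, and fell by 1.10 ± 0.10 (adjusted p = 2.29e-05). After normexp correction the Akap5 difference was 0.30 in mESC and -0.59 in iPSC.

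Of the other proteins that bind cyclic AMP, 2 of 4 tested genes were higher and 1 lower in Tbx3-high mESC, and 1 of 6 was lower in null-labelled iPSC. Cnga3, a subunit of the cyclic nucleotide gated channel of cone photoreceptors, was at 0.44, 0.65, 0.64 and 0.73 in the Tbx3-high samples, against 0.02, 0.05, 0.16 and 0.04 in the Tbx3-low samples. It rose by 0.55 ± 0.09 (limma adjusted p = 0.00122). Cnga3 was at -1.15 and -0.79 in the null-labelled samples, against 1.48 and 1.55 in the wild type, and fell by 2.48 ± 0.13 (adjusted p = 7.05e-07). These signs are those of Rapgef3 and Adcy2. Whether the Cnga3 channel responds to cyclic AMP in these cells was not examined here. The channel gene Hcn3 fell by 0.74 ± 0.10 in Tbx3-high mESC (adjusted p = 0.000303), and its difference was -0.43 after normexp correction.

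On the Rap side, 1 of 9 tested genes of the GTPases and their other exchange factors was higher and 1 lower in each comparison. The 2 mESC calls were 1 without Tbx3-high replicate 3 or without Tbx3-low replicate 1 or 4. The 2 iPSC calls were 0 without null-labelled replicate 1 or without wild-type replicate 1, and 1 without either of the other arrays. Of the proteins that switch Rap off, 2 of 7 were higher in Tbx3-high mESC, and 1 of 7 was higher and 3 lower in null-labelled iPSC. These 4 iPSC calls were 1 without null-labelled replicate 2 or without wild-type replicate 1, and 2 without either of the other arrays. Rasa3, which acts on both Ras and Rap, was at 1.99, 1.97, 2.12 and 2.10 in the Tbx3-high samples, against 1.66, 1.67, 1.71 and 1.67 in the Tbx3-low samples, and rose by 0.37 ± 0.07 (limma adjusted p = 0.0038). The adjusted p reached 0.0608 in 1 of 20 alternatives. Rasa3 was at 0.63 and 0.60 in the null-labelled samples, against 2.11 and 1.82 in the wild type, and fell by 1.35 ± 0.10 (adjusted p = 8.91e-06). Sipa1l2 rose by 0.63 ± 0.09 in Tbx3-high mESC (adjusted p = 0.000471).

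**Figure D4:**
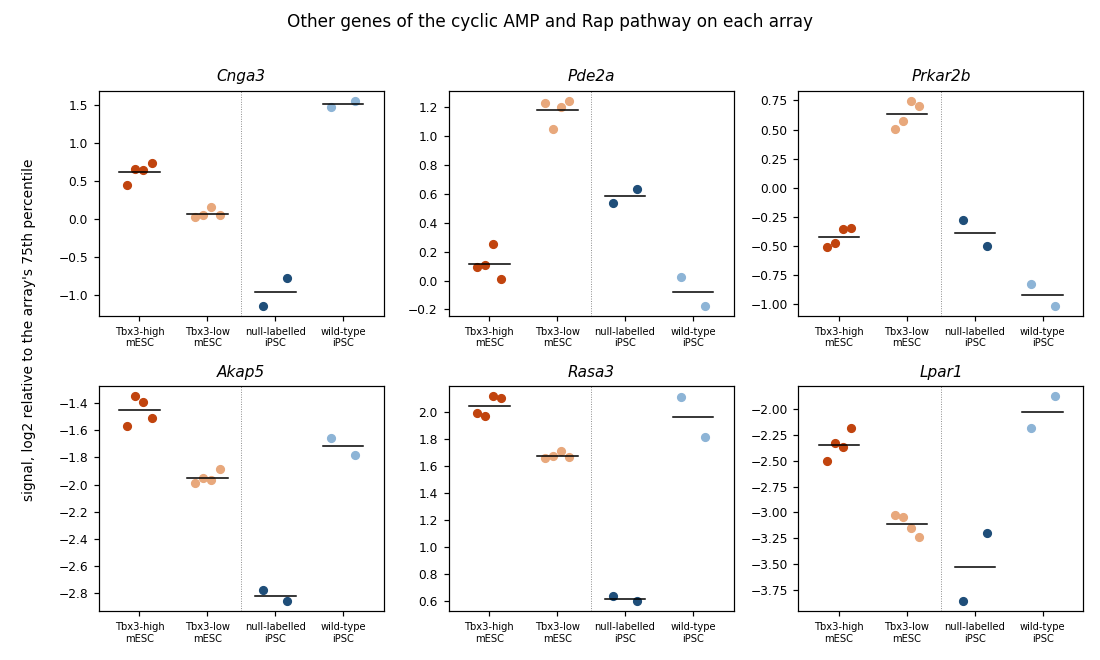
Signal of 6 list genes on each of the 12 arrays (y axis, log2 relative to the array's 75th percentile, with a scale of its own in each panel and not starting at 0), by group on the x axis, with a line at each group mean. Cnga3, Akap5, Rasa3 and Lpar1 are higher in Tbx3-high mESC and lower in null-labelled iPSC, and Pde2a and Prkar2b the other way round. They were picked for the plot with their values known.

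The CREB family factors and coactivators had 1 of 10 genes higher in Tbx3-high mESC, and 2 of 10 higher and 1 lower in null-labelled iPSC. Whether each of them responds to cyclic AMP was not examined here. The CREB family gene Creb3l2 rose by 0.49 ± 0.11 in Tbx3-high mESC (SE, limma adjusted p = 0.00746) and fell by 1.02 ± 0.16 in null-labelled iPSC (adjusted p = 0.00101). The coactivator Crtc1 rose by 0.74 ± 0.09 (adjusted p = 0.000161) and Creb3 by 0.92 ± 0.13 (adjusted p = 0.000408) in null-labelled iPSC. Of the genes known as CREB targets, 3 of 12 were higher and 4 lower in Tbx3-high mESC, and 1 of 12 was higher and 4 lower in null-labelled iPSC, 5 calls that were 3 without null-labelled replicate 2. Nfil3 rose by 0.84 ± 0.08 (adjusted p = 2.3e-05) and Bdnf fell by 1.01 ± 0.21 (adjusted p = 0.0043) in Tbx3-high mESC. The Bdnf difference was -0.39 after normexp correction. The clock gene Per1 rose by 1.31 ± 0.11 (adjusted p = 2.09e-05) and the phosphatase gene Dusp1 fell by 1.12 ± 0.16 (adjusted p = 0.000442) in null-labelled iPSC.

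**Figure D5:**
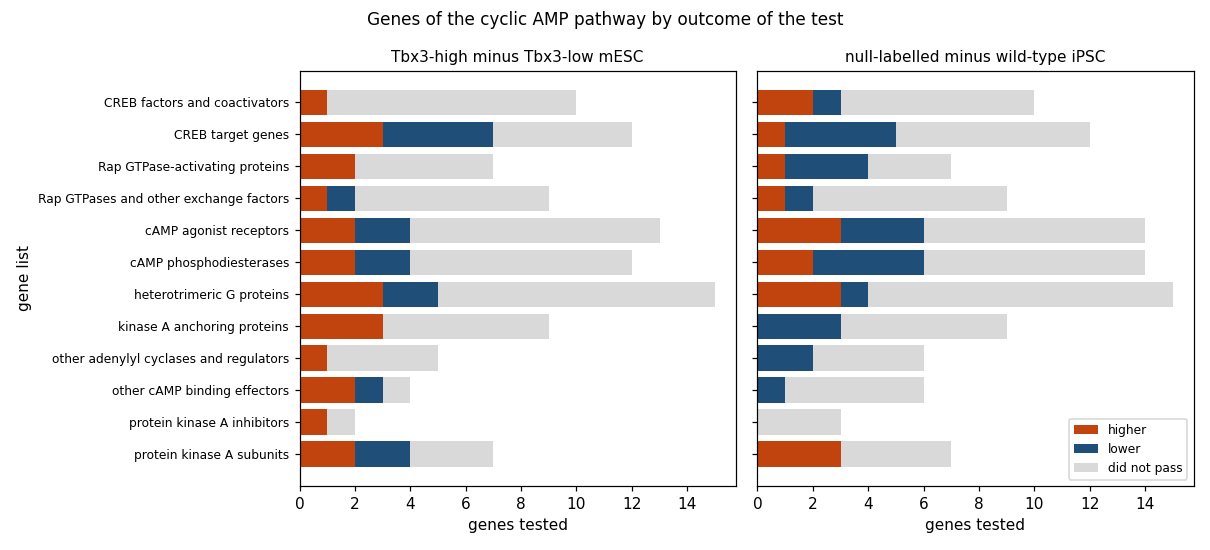
Number of tested genes (x axis) in each of the 12 pathway lists (y axis) that were called higher, called lower or did not pass in Tbx3-high minus Tbx3-low mESC (left) and null-labelled minus wild-type iPSC (right). The receptor, G protein and phosphodiesterase lists hold calls of both directions in both comparisons, and several counts change when 1 array is left out, as given in the text.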

How the data were processed

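RNA of 12 samples was measured on 1-colour Agilent arrays, 1 array per sample. Per the labels' protocols, RNeasy kits gave the RNA, of which 50 ng was amplified and labelled with Cy3 (Low Input Quick Amp). The deposited intensity values came from Agilent Feature Extraction 10.7.3.1, per the file headers. They are a background-subtracted, detrended signal per spot without scaling between arrays, with probe positions on mm9. The authors also deposited a series table of log2 values. How it was made is not stated in the files used here, so it was an alternative only.

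From each log2 processed signal the 75th percentile of the non-control spots on its array was subtracted. Spots that the scanner software marked as outliers were left out. To be tested, a probe had to be well above background throughout at least 1 of the 2 groups. The model in limma 3.58.1 (R 4.3.3) had a mean for each of the 4 groups, used all 12 arrays and moderated variances by empirical Bayes (8 residual degrees of freedom). P-values were Benjamini-Hochberg adjusted over all 30691 probes tested in mESC and 36712 in iPSC, and adjusted p under 0.05 is called higher or lower, or risen or fallen. The number of arrays limits the precision. Where a group was not well above background on any array, a fold is a bound ("at least"), taking each such array at its own signal or at its lowest signal well above background, whichever is higher. Such a bound holds within the reported processing, and other background treatments gave smaller differences for some probes. Genes of the lists were represented by their probe with the highest mean signal. In each list and comparison the called gene with the largest difference and up to 3 more by size could be named, and of these the text names some, chosen with their values seen. Names came from a RefSeq gene table where possible: accessions named 27656 probes, symbols 3401 and synonyms 307. A further 1674 kept the name in the array design, and 22643 had no name.

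The members and all gene lists were chosen with earlier results of these data known. The fit was tested on simulated data. Alternatives were normexp background correction (offset 50), quantile normalization, the deposited table, no filter on dim probes, outlier-marked spots kept, the arrays of 1 cell type alone, a replicate block, slide row as a block and within each row, array weights, an intensity trend, the mean of a gene's probes, and leaving out each replicate. Figures were drawn with matplotlib 3.10.9.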

Additional observations from a re-analysis of the deposited data

Results flagged for a closer look

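Each member probe, Tbx3, each cell type marker and the pathway genes that could be named under the naming rule were examined for an array that stood apart from the rest of its mESC group. This made 228 groups, of which 16 had such an array. Chance flags about 1 in 20 groups. Values are log2 signals relative to the array's 75th percentile. Among the members only Rapgef4 was flagged, at -7.37 in Tbx3-high replicate 1, against -6.90 to -6.89 in the other Tbx3-high samples, all not well above background. Pde8b was at -5.79 in Tbx3-high replicate 2, against -4.73 to -4.62 in the others. Creb3 was at 0.0105 in Tbx3-high replicate 2, against 0.11 to 0.13 in the others. Dusp1 was at 1.88 in Tbx3-high replicate 4, against 1.71 to 1.73, and Rapgef1 was at 2.13 in Tbx3-high replicate 3, against 1.97 to 1.98. Egr1 was at 2.59 in Tbx3-low replicate 3, against 2.74 to 2.76 in the other Tbx3-low samples.

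Among the markers, Thy1 was at 4.73 in Tbx3-high replicate 2, against 0.74 to 0.96 in the other Tbx3-high samples, and Dcx was at -5.65 on the same array, against -6.83 to -6.77. In Tbx3-high replicate 1 Cdh5 was at -7.44, against -6.99 to -6.90, Lum at -7.43, against -6.98 to -6.93, and Tie1 at -6.42, against -7.08 to -7.03. In Tbx3-high replicate 4 Ptprc was at -2.85, against -5.47 to -5.20, and Tagln at 0.94, against 0.56 to 0.61. Rbfox3 was at -1.60 in Tbx3-high replicate 3, against -1.85 to -1.81. In Tbx3-low replicate 4 Gata4 was at -1.12, against -1.59 to -1.51, and Snap25 at 2.38, against 2.95 to 3.03.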

How the results depend on the processing

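The number of member probes called in iPSC, 6 in the reported analysis, lay between 4 and 7 over the 13 alternatives, and both ends were reached by leaving out 1 replicate. The difference of Adcy3 in iPSC, which did not pass, turned to -0.00282 without null-labelled replicate 2 and to -0.119 without wild-type replicate 2, and ran from -0.119 to 0.314 with 1 replicate left out. The number of probes called in iPSC, 10398, ranged from 6872 (without wild-type replicate 1) to 8298 with 1 replicate left out, and the number of pathway genes called, 39, from 25 to 29, with 25 both without null-labelled replicate 2 and without wild-type replicate 1. The iPSC arrays fitted alone called 21 pathway genes, and 44.2% of their probe calls were higher, against 54.6% in the reported fit. Within row 1 of the slide 23 pathway genes were called in mESC (14 higher, 9 lower), against 36. Fewer arrays enter the fits with a replicate left out and the fit of the iPSC arrays alone. Within row 1 fewer arrays are compared. The cause was not tested further. Normexp moved the median of all probes in iPSC to 0.11, and the deposited table put 48.4% of the mESC calls higher, against 55.9%.

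Same-numbered samples deviated from their group means together at r = 0.11, 0.12, 0.09 and 0.07 in mESC and at 0.007 in iPSC. Not every sample correlated best with its own number, so the numbers were not taken to pair the samples. The mESC deviations followed the slide row, with replicates 1 and 2 in row 1 and replicates 3 and 4 in row 2. Tbx3-high and Tbx3-low samples of the same row had r from 0.0348 to 0.188, and those of different rows from -0.152 to -0.0435. The reported fit has no term for row. With slide row as a block 9410 probes and 41 pathway genes were called in mESC, against 7946 and 36 in the reported fit. A replicate block gave 8006 probes and 36 pathway genes called in mESC, and 9529 probes, 6 member probes and 34 pathway genes in iPSC. Signal near background limits what can be said of the size of the Adcy2, Adcy1 and Adcy5 differences, and no difference can be read for Adcy8 and Rapgef4.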

Other observations

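The named genes whose signal followed the members with the largest fitted differences most closely (Adcy2 in mESC, and in iPSC Adcy1, whose difference is measured only as a bound) were found by Pearson correlation over the 12 arrays among 17829 genes, which share slide and cell type. They are a description and say nothing of shared function. For Adcy2, the member with the largest fitted difference in mESC, they were Rnf111 (r = 0.98), Tnfrsf13c (r = 0.978) and Tns1 (r = 0.977). Their differences were 0.65, 1.74 and 0.99 in Tbx3-high minus Tbx3-low mESC and -0.34, -1.08 and -0.74 in null-labelled minus wild-type iPSC, in the same order. For Adcy1 they were Lss (r = 0.985), Ehd3 (r = 0.977) and Kcnh3 (r = 0.975). Their differences were 0.29, 0.71 and 0.66 in Tbx3-high minus Tbx3-low mESC and 0.93, 2.11 and 1.37 in null-labelled minus wild-type iPSC.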
